A study of Homo sapiens with 6 samples.

Results

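Solute carriers are the membrane proteins, numbered by family from SLC1 upward, that move amino acids, sugars, ions, metals, vitamins and nucleotides across the plasma membrane and the membranes of organelles. A family groups proteins of similar sequence, and its members often differ in substrate, in direction of transport and in the membrane they sit in. Most of them run downhill on a gradient that a pump has built, chiefly that of sodium at the cell surface and that of protons in lysosomes, and those of family SLC25 carry metabolites across the inner membrane of mitochondria. The genes described here are the protein-coding genes named SLC, a number, A and a number whose mean level over all 6 libraries was at least 1 FPKM (fragments scaled to transcript length and to the number mapped in the library), less SLC2A1, SLC2A3, SLC16A1, SLC16A3 and SLC7A11. Of 15897 genes in the table, 203 bear such a name, 163 of these reached the minimum, and 158 in 41 families were left after the exclusions. The members were selected on measured values, namely the mean over both groups, so their levels are a description and a gene silent in one group is a member only if it was well above the minimum in the other. Just inside the minimum lay SLC1A1 at 1.03, SLC13A3 at 1.11, SLC2A11 at 1.12 and SLC24A1 at 1.15 FPKM, and just outside lay SLC8A1 at 0.991, SLC17A7 at 0.989, SLC9A9 at 0.985 and SLC2A10 at 0.981 FPKM.

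The libraries are total RNA of cells labelled H1650, an established lung adenocarcinoma cell line, in 3 libraries labelled control (genotype wild type) and 3 labelled shSETD2, in which a lentiviral short hairpin RNA is directed at SETD2, the methyltransferase that trimethylates lysine 36 of histone H3. The study made stable cells with 3 hairpin constructs in a pLKO.1 vector, and neither the labels nor the methods tie the numbers of the shSETD2 libraries to these constructs. What hairpin or vector the control cells of these libraries carried is not given in the labels or the methods used here. The libraries are numbered 1 to 3 in each group and are given in that order throughout, control first. Nothing in the labels says that they came from separate cultures, so the p-values measure only the spread between these libraries, which may be technical.

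The targeted gene was checked first. SETD2 stood at 17.99, 10.2 and 17.6 FPKM in control and at 8.97, 8.09 and 12.2 FPKM in shSETD2 libraries, so the groups overlapped (log2 difference -0.58 ± 0.24 SE, limma adjusted p = 0.0641). Among 10 markers of lung epithelium only NKX2-1 had values, at 1.71, 1.80 and 1.44 FPKM in control and 0 in every shSETD2 library. Of 8 general epithelial markers 7 were listed, with a summed level of 14.1 to 16.02 FPKM in control and 402 to 455 FPKM in shSETD2 libraries, nearly all of the latter from the keratins KRT18, KRT8 and KRT7, while CDH1, a defining marker, was at 0.86 to 1.52 FPKM in control and at 0.0107 to 0.0140 FPKM in shSETD2. All 8 markers of embryonic kidney lines were listed and 6 had a mean of at least 1 FPKM in each group, with sums of 165 to 182 and 169 to 178 FPKM, although the neurofilament genes NEFL and NEFM had values in control libraries only. These marker levels move with the groups, and their part in the differences below was not tested. Whether both groups of libraries come from the same line was not tested either, and a difference between lines and a difference made by the hairpin cannot be told apart here. In RNA from whole cultures, fewer cells that express a gene and less RNA per cell cannot be told apart. The number of fragments behind each FPKM value is unknown, so counting error could not be given.

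Transcription begins at the promoter, and promoter sequences are shown first for carriers on which the results below turn. RefSeq promoter windows on GRCh38.p14 (250 bases before and 50 bases from the annotated start on) were matched by symbol for 128 of the 158 members, with 193 windows in all because some genes have several starts. The carriers with the largest rise on the log2(FPKM + 1) scale and with the highest shSETD2 level, SLC48A1 and SLC7A5, and 2 carriers that were near 0 FPKM in every shSETD2 library, SLC16A10 and SLC22A23, each have 1 window. The windows run 5′ to 3′ on the gene's strand, with every CG dinucleotide, the site of DNA methylation, in capitals.
SLC48A1 (chr12:47772988-47773287, plus strand): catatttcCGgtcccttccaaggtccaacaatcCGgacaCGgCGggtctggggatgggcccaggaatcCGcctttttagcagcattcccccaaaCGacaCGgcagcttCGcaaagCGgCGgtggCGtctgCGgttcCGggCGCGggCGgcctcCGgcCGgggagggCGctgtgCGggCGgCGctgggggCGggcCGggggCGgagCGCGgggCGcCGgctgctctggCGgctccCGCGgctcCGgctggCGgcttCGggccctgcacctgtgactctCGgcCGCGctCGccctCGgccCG
SLC7A5 (chr16:87869458-87869757, minus strand): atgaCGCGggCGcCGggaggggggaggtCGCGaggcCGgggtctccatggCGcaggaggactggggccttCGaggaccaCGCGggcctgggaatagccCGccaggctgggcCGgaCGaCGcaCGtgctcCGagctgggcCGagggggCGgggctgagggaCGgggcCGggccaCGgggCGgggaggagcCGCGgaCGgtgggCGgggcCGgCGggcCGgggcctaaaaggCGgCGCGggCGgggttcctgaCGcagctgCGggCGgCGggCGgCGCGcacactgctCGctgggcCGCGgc
SLC16A10 (chr6:111087253-111087552, plus strand): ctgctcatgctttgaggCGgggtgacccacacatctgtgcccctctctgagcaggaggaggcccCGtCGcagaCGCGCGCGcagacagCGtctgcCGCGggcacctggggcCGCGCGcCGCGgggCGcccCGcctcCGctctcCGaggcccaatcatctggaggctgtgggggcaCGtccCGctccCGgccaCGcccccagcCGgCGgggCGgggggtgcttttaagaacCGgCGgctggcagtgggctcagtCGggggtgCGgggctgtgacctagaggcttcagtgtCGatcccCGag
SLC22A23 (chr6:3324101-3324400, minus strand): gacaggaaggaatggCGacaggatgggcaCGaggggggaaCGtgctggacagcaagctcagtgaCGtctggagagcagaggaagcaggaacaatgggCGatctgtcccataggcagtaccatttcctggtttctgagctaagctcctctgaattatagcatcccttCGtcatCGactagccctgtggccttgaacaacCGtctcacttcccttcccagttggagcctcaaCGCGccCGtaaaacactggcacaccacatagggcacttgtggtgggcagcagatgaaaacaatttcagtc
The 4 windows hold 41, 44, 32 and 11 CG dinucleotides. By its coordinates the last lies inside the deposited span of SLC22A23 (chr6:3269196-3457256 in hg19, minus strand), though the builds differ. It may be an internal start and not the promoter at the 5′ end of the gene. The median was 26 over the 193 member windows and 14 over all 35116 windows of the table, and it was 27.5 in windows of members called higher and 24 in those called lower. Over the 14 windows of the 8 matched members with a mean under 0.1 FPKM in shSETD2 the median was 12.5, against 26 in the 179 windows of the other members. Of these 14 windows 4 belong to SLC7A8, 3 to SLC1A3 and 1, the possibly internal one, to SLC22A23. With the richest window of each gene alone, the median was 21.5 over the 8 members (10 to 33) and 30.0 over the other 120 members (1 to 51).

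Amino acid carriers are known targets of the amino acid response, in which the factor ATF4 binds a composite site. The 8 letters TGATGNAA, the shared core of such sites with N for any base, were searched on both strands of every window. They occur in 15.8% of the windows of amino acid carriers (6 of 21 genes with a window), in 4.66% of all member windows and in 3.62% of all windows in the table. The 6 stretches are shown on the gene's strand with up to 20 bases on each side and the core in capitals, and TTNCATCA is the same core read from the other strand.
SLC3A2 (chr11:62881716-62881748, plus strand): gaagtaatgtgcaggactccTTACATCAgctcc
SLC38A1 (chr12:46266493-46266540, minus strand): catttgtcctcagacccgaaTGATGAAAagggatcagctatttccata
SLC7A1 (chr13:29595654-29595701, minus strand): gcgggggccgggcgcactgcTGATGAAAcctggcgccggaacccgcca
SLC1A5 (chr19:46784884-46784931, minus strand): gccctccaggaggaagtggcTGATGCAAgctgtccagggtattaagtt
SLC1A4 (chr2:64989372-64989419, plus strand): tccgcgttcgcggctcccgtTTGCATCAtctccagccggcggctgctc
SLC1A3 (chr5:36596348-36596395, plus strand): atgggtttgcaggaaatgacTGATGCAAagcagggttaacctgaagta
Of these 6 genes SLC3A2 and SLC38A1 were called higher in shSETD2 and the other 4 lower as deposited, of which SLC1A5 changes sign with median ratio scaling. SLC7A1 has 1 window, and each of the other genes shown has several windows with the core in only 1 of them. Some of these windows may be alternative or internal starts. A match of letters is a description and not a binding site, and carriers without the core in these windows include SLC38A2 and SLC7A5.

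Each gene was compared between the groups on log2(FPKM + 1) with limma over all 14068 genes that had a mean of at least 0.5 FPKM, and called where the adjusted p was under 0.05. Of the 158 carriers 49 were called higher in shSETD2 and 75 lower, and 34 were neither. That is 31.0% and 47.5% of the carriers, against 28.8% and 49.8% of all protein-coding genes with a mean of at least 1 FPKM, so that the shares of the carriers as a whole were close to those of the background. The median log2 difference of the carriers was -0.23, and that of the background -0.24. Over all tested genes the median was -0.29 as deposited, -0.10 after quantile normalization and -0.03 after median ratio scaling, so that part of the excess of lower calls depends on how the libraries are scaled. With median ratio scaling 69 carriers were called higher and 61 lower, against 40.7% and 36% of the background, and the median of the carriers was 0.05. As deposited, with median ratio scaling and with quantile normalization alike, 47 carriers were higher and 59 lower, and 6 called carriers changed sign with a scaling. All 3 shSETD2 libraries lay above all 3 control libraries for 49 carriers (31.0%) and below them for 76 (48.1%), against 30% and 51.2% of the background. Among the 134 carriers with a mean of at least 1 FPKM in both groups, 46 (34.3%) were higher and 54 (40.3%) lower, against 28.4% and 47.3% of such genes. With 3 libraries in each group an exact permutation test of a single gene cannot go below p = 0.1, so the calls rest on the spread that limma shares across genes.

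**Figure D1:**
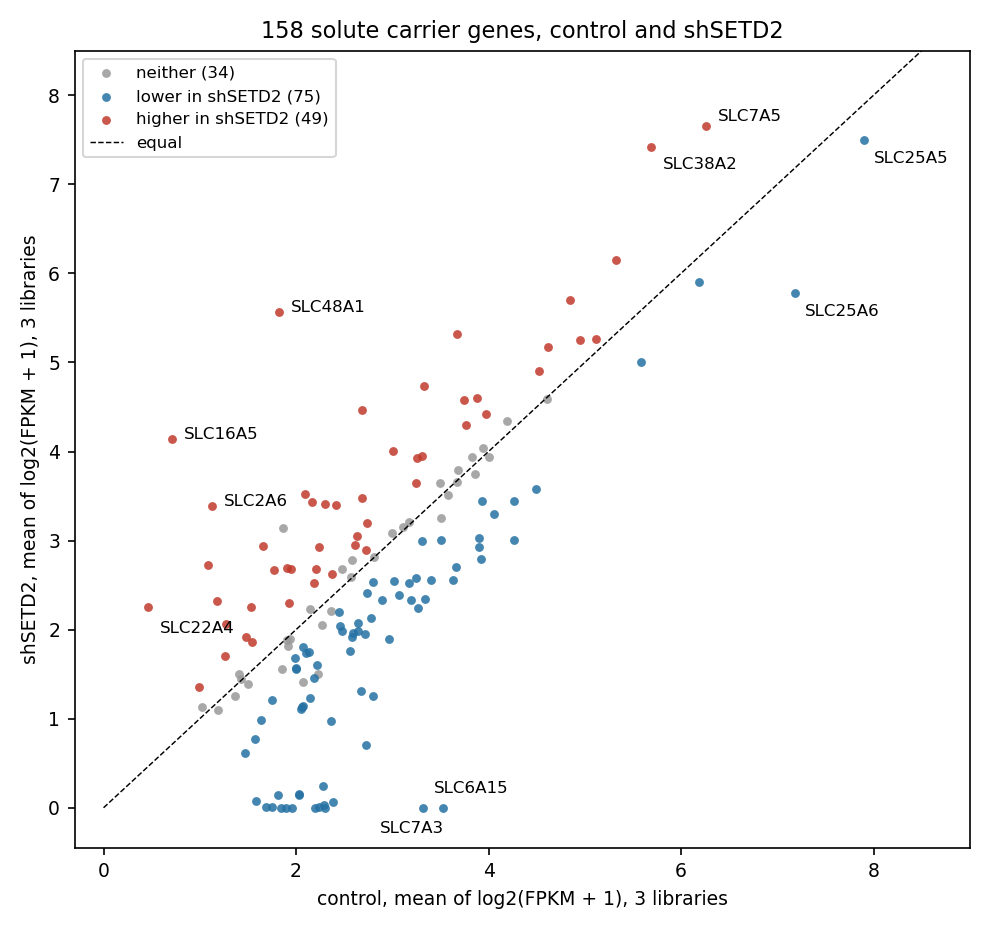
Mean log2(FPKM + 1) of each of the 158 solute carrier genes over the 3 control libraries (horizontal axis) and the 3 shSETD2 libraries (vertical axis), coloured by the call as deposited: 49 higher, 75 lower and 34 neither. Points near the horizontal axis are carriers at or near 0 FPKM in shSETD2, and SLC48A1 and SLC16A5 lie farthest above the diagonal of equal levels. With median ratio scaling the counts become 69 higher and 61 lower.

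Some carriers had values in control libraries and nearly none in shSETD2 libraries. A mean under 0.1 FPKM was found for 13 carriers in shSETD2 (8.23%) and for 0 in control, while the background had 3.54% and 1.74%. These counts describe genes that passed the minimum through the other group. Listed at 0 in all 3 shSETD2 libraries were SLC6A15, SLC7A3, SLC1A3, SLC38A3, SLC46A3 and SLC7A8, and the others were SLC22A23, SLC16A10, SLC27A2, SLC47A1, SLC22A17, SLC13A3 and SLC1A1. In total 21 carriers had a mean of at least 1 FPKM in control only, 134 in both groups and 3, namely SLC16A5, SLC22A4 and SLC37A1, in shSETD2 only. A carrier that reached the minimum through 1 group alone can be called higher in that group only. The class shares given below include such carriers and are a description. Differences of over 1 on the log2(FPKM + 1) scale, called or not, were found for 16 carriers that rose and 27 that fell. In the background they were found for 1370 and 1975 of 11537 genes. SLC6A6, among the 16, was not called. On the log2(FPKM + 1) scale a change of a gene with low FPKM comes out smaller than it is, and for genes listed at 0 in one group no fold change is given.

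**Figure D2:**
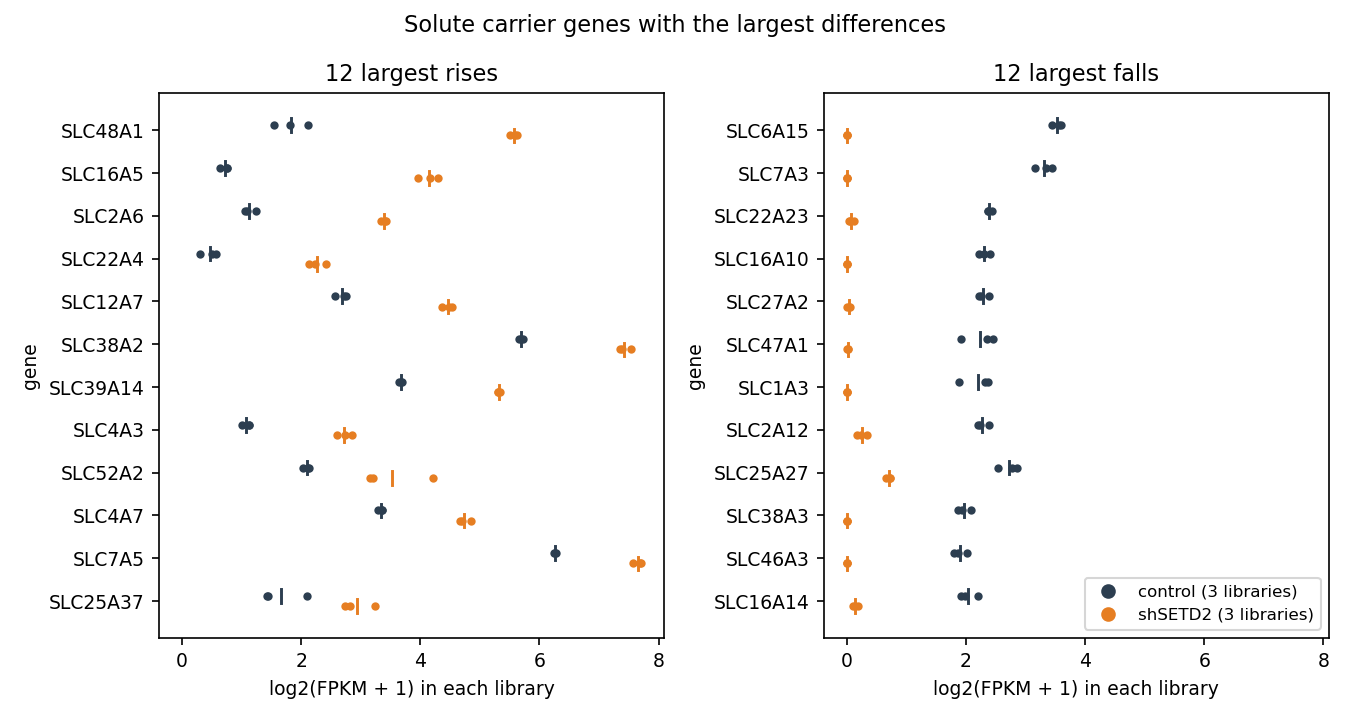
Level of the 12 carriers with the largest rise (left) and the 12 with the largest fall (right) in each library, as log2(FPKM + 1) on the horizontal axis, with control libraries in dark blue, shSETD2 libraries in orange and the group mean as a short bar. Genes were chosen for groups that do not overlap, and SLC52A2 is the one with a shSETD2 library well apart from the others.

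Carriers of amino acids and peptides spanned both the largest falls and several of the highest levels. Of 26 genes 7 were higher, 13 lower and 6 neither (10 higher and 12 lower with median ratio scaling). As deposited that is 26.9% and 50%, against 28.8% and 49.8% of the background. Of those called lower, SLC1A1, SLC1A3, SLC6A15, SLC7A2, SLC7A3, SLC7A8 and SLC38A3 reached the minimum through control alone, with shSETD2 means under 1 FPKM. Their direction followed from the selection, so the shares of this class are a description. The share of the class in the summed FPKM of all 158 carriers went from 23.2 to 24.8% in control to 34.0 to 34.4% in shSETD2 libraries. The class sum was 403 to 414 FPKM in control and 628 to 641 FPKM in shSETD2. By group means SLC7A5 went from 75.7 to 201 FPKM and SLC38A2 from 50.7 to 171 FPKM, together more than the rise of the class sum. SLC7A5 (LAT1, at chr16:87863629-87903094 (minus strand) in hg19) exchanges large neutral amino acids such as leucine across the plasma membrane. Its level was 75.8, 76.4 and 74.8 FPKM in control and 206, 190.1 and 208 FPKM in shSETD2, the highest of the 158 carriers in the latter. It was 2.66-fold higher by group means (1.398 ± 0.042 SE, limma adjusted p = 4.50e-07). SLC3A2, the heavy chain that brings SLC7A5 to the surface, rose less, from 23.7, 23.6 and 23.6 FPKM to 35.0, 33.4 and 36.7 FPKM (0.55 ± 0.044 SE, adjusted p = 4.02e-05).

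The sodium-coupled neutral amino acid transporters of family SLC38, which supply glutamine and other small neutral amino acids, had 3 of 7 genes higher and 1 lower. SLC38A2 (SNAT2, chr12:46751972-46766650 (minus strand)) went from 49.7, 51.9 and 50.5 FPKM to 162, 184 and 166 FPKM, a 3.36-fold rise (1.73 ± 0.054 SE, adjusted p = 5.25e-07). Its paralog SLC38A1 had 38.3, 39.8 and 39.3 FPKM in control and 68.5, 73.8 and 68.6 FPKM in shSETD2 (0.83 ± 0.042 SE, adjusted p = 4.56e-06). Both genes thus separated the groups with little spread inside each. The lysosomal glutamine carrier SLC38A7 was lower in level but also rose, from 2.21, 1.88 and 1.59 to 4.19, 3.57 and 3.57 FPKM (0.72 ± 0.099 SE, adjusted p = 5.45e-04). In the opposite direction, SLC38A3, a glutamine carrier best known from liver, kidney and brain, was at 2.64, 2.83 and 3.23 FPKM in control and at 0 in all shSETD2 libraries (adjusted p = 9.76e-07).

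Family SLC7, the light chains of SLC3A2 and the related cationic carriers, divided between the directions, with 2 of 6 genes higher, SLC7A5 among them, and 4 lower. SLC7A6, which exchanges cationic for neutral amino acids, was at 4.64, 8.78 and 8.53 FPKM in control and 15.5, 14.7 and 15.1 FPKM in shSETD2 (0.997 ± 0.21 SE, adjusted p = 0.00458). The arginine and lysine importer SLC7A1 fell from 45.9, 48.6 and 46.1 to 31.7, 30.2 and 31.7 FPKM (-0.57 ± 0.041 SE, adjusted p = 2.30e-05). The other 3 that were lower were at or near 0 in shSETD2. SLC7A3 was at 9.83, 7.97 and 9.18 FPKM in control and listed at 0 in every shSETD2 library (adjusted p = 1.86e-07), and SLC7A8 (LAT2), another partner of SLC3A2, was at 2.92, 2.40 and 2.49 FPKM and then at 0 (adjusted p = 1.24e-06). SLC7A2 had 1.67, 5.10 and 1.67 FPKM in control and 0.101, 0.137 and 0.0859 FPKM in shSETD2 (adjusted p = 0.00299), with control library 2 about 3 times the others (ratio of the highest to the lowest control value 3.06). SLC43A1 (LAT3), a leucine carrier that needs no heavy chain, was lower too, at 6.31, 5.76 and 5.80 FPKM against 1.46, 1.23 and 1.46 FPKM (-1.54 ± 0.067 SE, adjusted p = 2.16e-06).

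All 4 members of family SLC1 were called lower as deposited, and 3 with median ratio scaling, where SLC1A5 changed sign. SLC1A5 (ASCT2), the main glutamine importer of many tumor lines, was at 74.0, 69.0 and 72.1 FPKM in control and 61.3, 55.2 and 60.2 FPKM in shSETD2 (-0.28 ± 0.052 SE, adjusted p = 0.00244), but with median ratio scaling its difference was 0.05 (adjusted p = 0.440). SLC1A4, its close relative, fell from 6.27, 6.72 and 6.32 to 4.02, 3.94 and 4.10 FPKM (-0.57 ± 0.05 SE, adjusted p = 6.17e-05). The glutamate importers SLC1A3 and SLC1A1 had values above 1 FPKM in control libraries alone. SLC1A3 had 3.97, 4.19 and 2.70 FPKM there and 0 in shSETD2 (adjusted p = 9.92e-06), and SLC1A1 had 2.22, 1.78 and 2.03 FPKM there and 0.0823, 0.0766 and 0 FPKM in shSETD2 (adjusted p = 4.20e-06).

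In family SLC6, which uses sodium and chloride, 2 of 4 genes were lower and 2 neither. SLC6A15, a carrier of branched-chain amino acids and proline that is best known from brain, showed the largest fall of the 158 carriers on the log2(FPKM + 1) scale: 10.8, 11.02 and 9.92 FPKM in control and 0 in all 3 shSETD2 libraries (adjusted p = 4.80e-08). The creatine carrier SLC6A8 fell from 14.4, 14.1 and 14.2 to 9.74, 9.39 and 10.5 FPKM (-0.48 ± 0.052 SE, adjusted p = 1.68e-04). For the taurine carrier SLC6A6, 1 library in each group stood apart: it was at 1.75, 5.40 and 1.72 FPKM in control and 12.3, 3.16 and 11.6 FPKM in shSETD2, with control library 2 above shSETD2 library 2. Its difference of 1.29 ± 0.55 SE missed the threshold (adjusted p = 0.0691), and it passed without control library 2 (1.70, adjusted p = 0.0354) or without shSETD2 library 2 (1.83, adjusted p = 0.0104). It also passed with median ratio scaling (1.55, adjusted p = 0.0391) and with quantile normalization (1.504, adjusted p = 0.0434). Family SLC36 gave mixed values. SLC36A4 fell from 5.44, 5.10 and 5.21 to 3.23, 3.54 and 2.90 FPKM (-0.57 ± 0.07 SE, adjusted p = 3.36e-04), whereas SLC36A1, with 3.63, 3.36 and 2.65 FPKM in control and 3.03, 1.09 and 1.26 FPKM in shSETD2, was not called (adjusted p = 0.0550) but passed when shSETD2 library 1 was left out (-0.95, adjusted p = 0.00107).

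**Figure D3:**
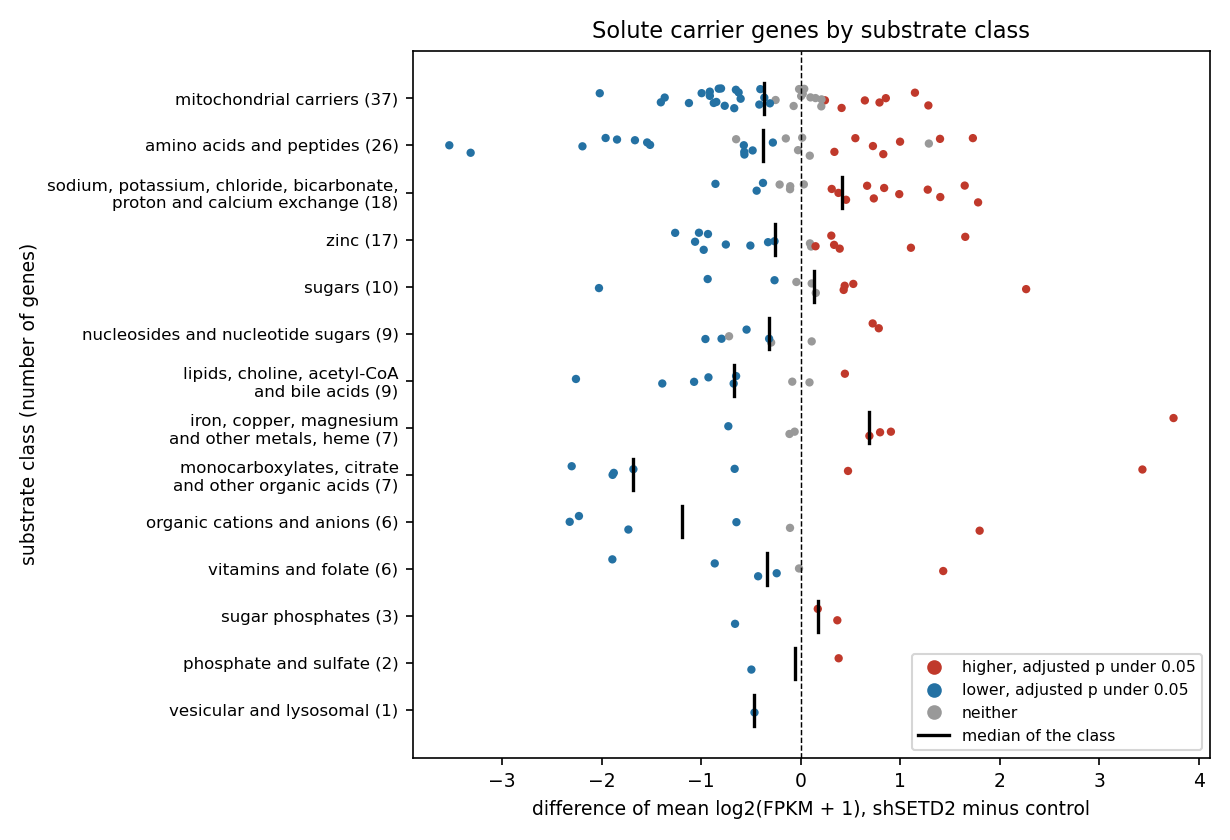
Difference of mean log2(FPKM + 1), shSETD2 minus control, of each carrier (points) in 14 substrate classes assigned by SLC family, with the class median as a black bar and the call as deposited as the color. Ion exchangers and metal carriers have their medians to the right of 0, at 0.42 and 0.69, while organic acid and organic ion carriers have theirs at -1.68 and -1.19. With median ratio scaling these 4 medians were 0.69, 0.96, -1.56 and -1.03. Many organic acid and organic ion carriers reached the minimum through a single group, so the medians of these classes are a description. Through control these were SLC13A3, SLC16A9, SLC16A10, SLC16A14, SLC22A17, SLC22A23 and SLC47A1, and through shSETD2 SLC16A5 and SLC22A4.

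Exchangers and cotransporters of sodium, potassium, chloride, bicarbonate, protons and calcium, which set cell volume and pH, had 11 of 18 genes higher, 3 lower and 4 neither (12 higher and 2 lower with median ratio scaling). Set beside the background of 28.8% higher and 49.8% lower, the class had 61.1% and 16.7%. The class was assigned by family and so includes the sulfate carrier SLC26A2, which was among the genes called higher. Its summed level was 82.9, 81.4 and 82.9 FPKM in control and 150.8, 150.7 and 147.1 FPKM in shSETD2 libraries. All 4 members of the bicarbonate family SLC4 were higher. SLC4A7, which imports sodium with bicarbonate, rose from 9.28, 9.21 and 8.79 to 24.4, 27.8 and 24.9 FPKM (1.401 ± 0.06 SE, adjusted p = 2.14e-06). The chloride-bicarbonate exchanger SLC4A2 had 13.4, 11.9 and 11.9 FPKM in control and 24.0, 22.1 and 22.6 FPKM in shSETD2 (0.84 ± 0.061 SE, adjusted p = 2.45e-05). SLC4A3, an exchanger of the same kind best known from heart and brain, went from 1.18, 1.17 and 1.003 to 6.204, 5.05 and 5.67 FPKM, a 5.05-fold rise (1.65 ± 0.082 SE, adjusted p = 4.01e-06). SLC4A11 was at 2.82, 2.66 and 3.07 FPKM in control and 5.78, 5.03 and 5.40 FPKM in shSETD2 (0.73 ± 0.07 SE, adjusted p = 9.14e-05).

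Of 5 cation-chloride cotransporters (SLC12), 3 were higher and 1 lower. SLC12A7 (KCC4, chr5:1050491-1112150 (minus strand)), which lets potassium and chloride out of swollen cells, rose 3.88-fold from 5.73, 4.96 and 5.59 to 22.3, 19.6 and 21.3 FPKM (1.78 ± 0.071 SE, adjusted p = 1.52e-06). SLC12A4 (KCC1) rose from 4.08, 4.52 and 4.40 to 10.5, 8.98 and 9.25 FPKM (0.99 ± 0.072 SE, adjusted p = 2.48e-05). SLC12A2 (NKCC1), which brings sodium, potassium and chloride in, was at 7.92, 8.18 and 8.03 FPKM and 7.90, 8.94 and 7.91 FPKM and was not called as deposited (0.03 ± 0.059 SE, adjusted p = 0.655), though median ratio scaling put it at 0.33 (adjusted p = 0.00194).

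Sodium-proton exchangers (SLC9) had 3 of 5 genes higher and 1 lower. Of the exchangers of the Golgi and endosomes, SLC9A7 rose from 5.85, 5.80 and 5.42 to 7.86, 8.55 and 8.08 FPKM (0.45 ± 0.054 SE, adjusted p = 2.76e-04) and SLC9A8 from 2.86, 3.10 and 2.45 to 3.83, 3.91 and 4.05 FPKM (0.38 ± 0.076 SE, adjusted p = 0.00358). The sulfate carrier SLC26A2, needed to sulfate proteoglycans, rose from 8.49, 8.81 and 8.45 to 13.5, 15.2 and 13.9 FPKM (0.67 ± 0.055 SE, adjusted p = 4.44e-05). The calcium exchanger SLC24A1, near the minimum for a member, fell from 1.79, 1.85 and 1.68 to 0.565, 0.498 and 0.527 FPKM (-0.86 ± 0.055 SE, adjusted p = 1.35e-05).

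The mitochondrial carriers (SLC25) were the largest family, with 37 members. As deposited 7 were higher (18.9%), 20 lower (54.1%) and 10 neither, against 28.8% and 49.8% of the background. After median ratio scaling, where the background had 40.7% higher and 36% lower, the split was 16 against 16. The share of the family in the summed carrier FPKM was 39.6 to 42.3% in control and 27.6 to 27.97% in shSETD2 libraries. The exchangers of ADP for ATP, which export the ATP that mitochondria make, held 53.8 to 59.5% of the summed FPKM of the family in control and 45.2 to 46.9% in shSETD2 libraries. SLC25A5 (ANT2) was the highest carrier in control, at 225, 213 and 282 FPKM against 185, 175 and 179 FPKM in shSETD2. Its difference of -0.41 ± 0.10 SE was called (adjusted p = 0.0106), with control library 3 the highest, and was -0.07 and not called with median ratio scaling (adjusted p = 0.549). SLC25A6 (ANT3) fell from 148, 137 and 148 to 53.5, 52.6 and 55.3 FPKM, 2.68-fold by group means (-1.41 ± 0.044 SE, adjusted p = 5.34e-07). This gene lies in the region that chromosomes X and Y share. SLC25A4 (ANT1), the form of heart and muscle, fell from 5.70, 5.86 and 5.12 to 2.86, 2.89 and 2.82 FPKM (-0.76 ± 0.061 SE, adjusted p = 3.80e-05). These genes are close in sequence and have processed pseudogenes, and how the authors' quantification divided shared fragments between them is not given in the sources used here.

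Among the other mitochondrial carriers, those of iron went in opposite directions. SLC25A37 (mitoferrin 1) had 3.26, 1.69 and 1.72 FPKM in control and 6.10, 8.49 and 5.65 FPKM in shSETD2 (1.28 ± 0.22 SE, adjusted p = 0.00170). SLC25A28 (mitoferrin 2) fell from 14.5, 13.5 and 13.9 to 7.58, 6.71 and 7.24 FPKM (-0.87 ± 0.057 SE, adjusted p = 1.43e-05). Of the 7 that rose, the citrate exporter SLC25A1 went from 27.99, 27.5 and 27.8 to 43.2, 52.9 and 58.2 FPKM (0.85 ± 0.10 SE, adjusted p = 3.12e-04), and the acylcarnitine importer SLC25A20 from 5.11, 5.42 and 5.76 to 10.9, 9.69 and 9.79 FPKM (0.79 ± 0.066 SE, adjusted p = 4.78e-05). Also higher were SLC25A51, the importer of NAD, and SLC25A24, which exchanges ATP-magnesium for phosphate, at 0.41 ± 0.071 and 0.64 ± 0.14 SE (adjusted p = 0.00172 and 0.00600). SLC25A43, of unknown substrate, was higher too (1.15 ± 0.23 SE, adjusted p = 0.00391), with control library 1 at 0.549 FPKM against 2.01 and 1.49 FPKM in the other control libraries. The seventh, the aspartate-glutamate carrier SLC25A12, lost its call without control library 3 (0.24 with it and 0.20 without it, adjusted p = 0.0168 and 0.0516).

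Of the 20 mitochondrial carriers that were lower, the following are examples chosen after their values were seen. The ornithine carrier SLC25A15 fell from 9.14, 9.38 and 8.94 to 4.47, 4.08 and 3.75 FPKM (-0.996 ± 0.065 SE, adjusted p = 1.42e-05). SLC25A11, which exchanges oxoglutarate for malate, fell from 22.3, 20.6 and 21.6 to 11.9, 9.62 and 11.5 FPKM (-0.91 ± 0.082 SE, adjusted p = 6.68e-05). For SLC25A38, which imports glycine for heme, the values were 17.9, 18.8 and 18.1 FPKM and 10.6, 9.85 and 9.20 FPKM (-0.82 ± 0.059 SE, adjusted p = 2.22e-05). All 3 kept their call with median ratio scaling, as did SLC25A36, the pyrimidine nucleotide carrier, at 13.6, 14.2 and 14.6 and 5.72, 6.40 and 5.77 FPKM (-1.12 ± 0.057 SE, adjusted p = 4.56e-06). The largest fall of the family was that of SLC25A27, an uncoupling protein relative best known from brain, from 5.81, 6.25 and 4.83 to 0.583, 0.660 and 0.646 FPKM (-2.02 ± 0.091 SE, adjusted p = 2.57e-06). The phosphate carrier SLC25A3 was at 24.5, 22.4 and 23.4 FPKM and 22.9, 23.2 and 23.3 FPKM and was not called as deposited (-0.02 ± 0.044 SE, adjusted p = 0.725), though it was called higher with median ratio scaling (0.30, adjusted p = 7.79e-04) and lower with quantile normalization (-0.18, adjusted p = 0.0147). The glutathione carrier SLC25A39, at 16.6, 19.3 and 16.2 and 20.01, 18.2 and 19.8 FPKM, was not called as deposited (adjusted p = 0.122) and was called higher with median ratio scaling (0.47, adjusted p = 0.00156) or without control library 2 (0.22, adjusted p = 0.0190).

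**Figure D4:**
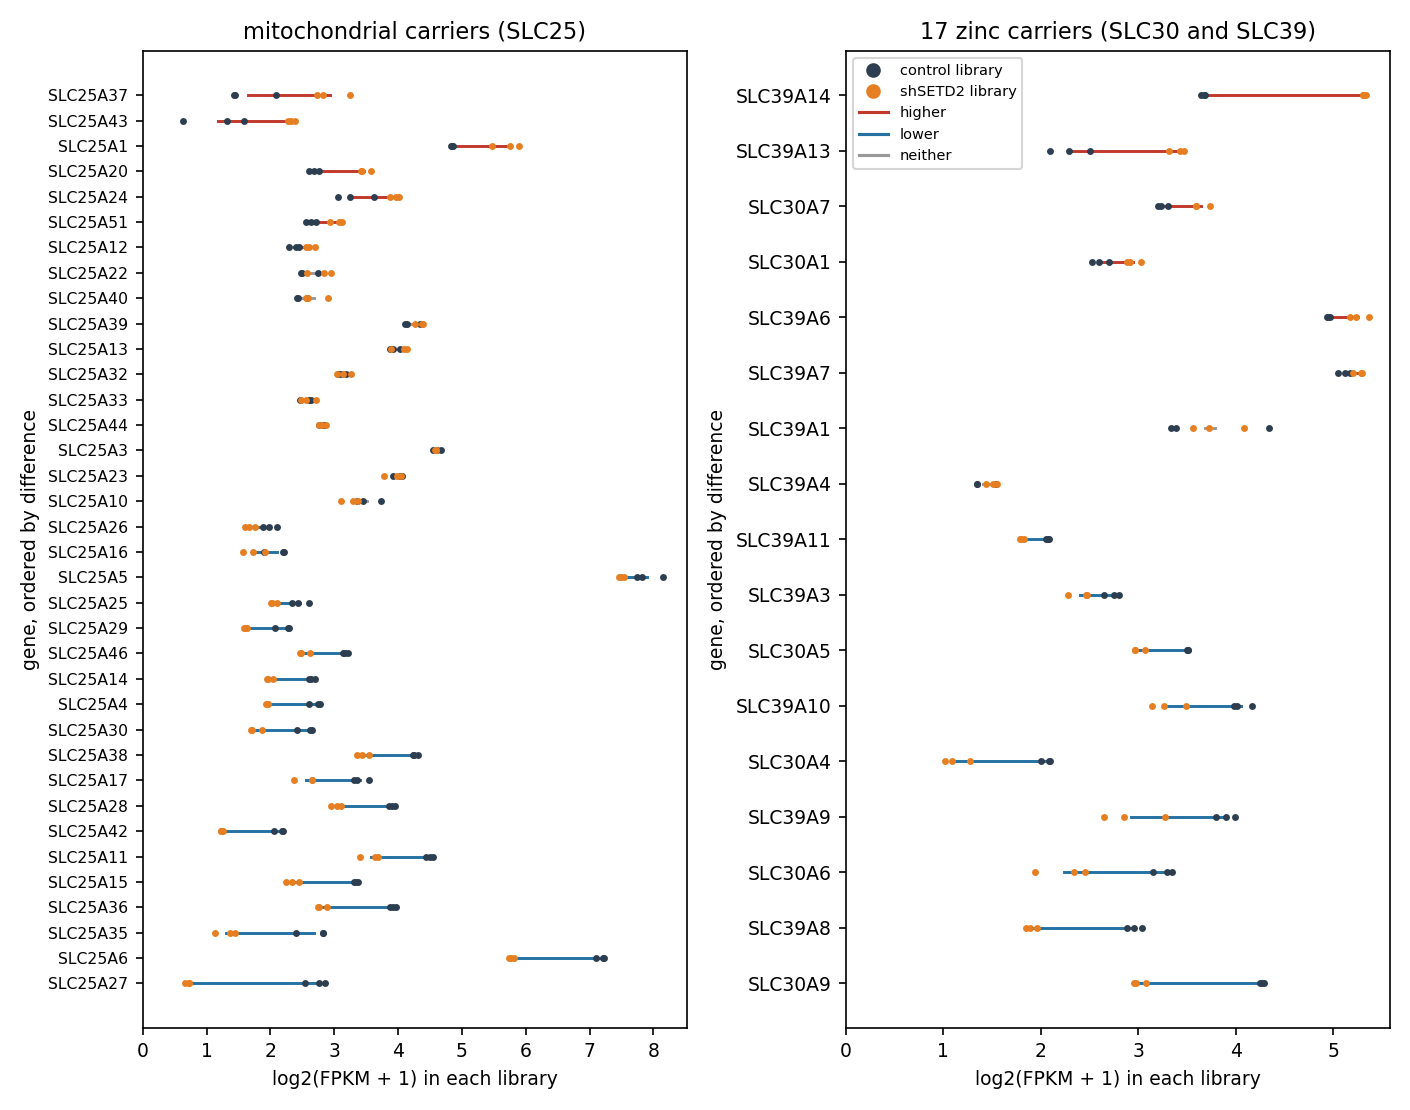
Level in each library, as log2(FPKM + 1), of mitochondrial carriers (left) and the 17 zinc carriers (right), ordered by their difference, with control libraries in dark blue, shSETD2 libraries in orange and a line between the group means coloured by the call as deposited. SLC25A5 and SLC25A6 lie far to the right of the other mitochondrial carriers, and SLC39A14 has the longest line among the zinc carriers. The call of SLC25A5 is lost with median ratio scaling, and SLC39A7 changes sign with quantile normalization.

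Zinc is carried out of the cytosol by family SLC30 (ZnT) and into it by family SLC39 (ZIP). Of the 6 members of SLC30, 2 were higher and 4 lower, and of the 11 members of SLC39, 4 were higher, 5 lower and 2 neither. Together 6 were higher (35.3%) and 9 lower (52.9%), against 28.8% and 49.8% of the background, and 7 and 7 with median ratio scaling. SLC39A14 (ZIP14), which imports zinc, manganese and iron not bound to transferrin, was at 11.5, 11.7 and 11.9 FPKM in control and 38.6, 38.7 and 39.6 FPKM in shSETD2, a 3.32-fold rise (1.65 ± 0.036 SE, adjusted p = 1.25e-07). Its closest relative SLC39A8 (ZIP8), with like substrates, fell from 6.40, 6.78 and 7.22 to 2.89, 2.71 and 2.60 FPKM (-1.06 ± 0.062 SE, adjusted p = 8.77e-06). The paralogs SLC39A6 and SLC39A10, which form a heteromer at the cell surface, also parted. SLC39A6 rose slightly from 30.3, 29.6 and 29.9 to 35.1, 40.2 and 36.6 FPKM (0.31 ± 0.055 SE, adjusted p = 0.00213), though not with quantile normalization (0.05), and SLC39A10 fell from 14.8, 15.1 and 16.96 to 7.85, 10.2 and 8.61 FPKM (-0.75 ± 0.10 SE, adjusted p = 4.73e-04).

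Inside the cell, SLC39A13 (ZIP13), of vesicles and the Golgi, rose from 3.91, 3.29 and 4.70 to 10.1, 8.98 and 9.77 FPKM (1.11 ± 0.11 SE, adjusted p = 1.13e-04), and SLC39A9, of the Golgi, fell from 14.9, 12.9 and 14.0 to 5.28, 8.65 and 6.22 FPKM (-0.98 ± 0.16 SE, adjusted p = 0.00128). SLC39A7 (ZIP7), which releases zinc from the endoplasmic reticulum, was at 32.2, 33.8 and 35.1 FPKM and 35.9, 38.0 and 38.4 FPKM. Its call as higher (0.15 ± 0.048 SE, adjusted p = 0.0265) was lost when control library 1, control library 2, shSETD2 library 2 or shSETD2 library 3 was left out, and its sign turned with quantile normalization (-0.11). Of the exporters, SLC30A1 (ZnT1), the one at the cell surface, rose from 5.06, 5.51 and 4.78 to 6.40, 7.19 and 6.55 FPKM (0.33 ± 0.069 SE, adjusted p = 0.00396). SLC30A5 and SLC30A6, which load enzymes of the secretory pathway as a heterodimer, both fell: the first from 10.4, 10.4 and 10.3 to 6.83, 7.398 and 6.81 FPKM (-0.51 ± 0.048 SE, adjusted p = 9.09e-05), the second from 8.81, 9.20 and 7.88 to 4.05, 2.83 and 4.47 FPKM (-1.02 ± 0.14 SE, adjusted p = 5.49e-04). SLC30A7, a Golgi carrier that feeds the same enzymes, rose from 8.24, 8.91 and 8.44 to 11.1, 12.4 and 11.1 FPKM (0.39 ± 0.06 SE, adjusted p = 9.82e-04). SLC30A9, a zinc exporter of mitochondria, fell 2.60-fold by group means, from 17.96, 18.6 and 18.3 to 6.78, 7.48 and 6.86 FPKM (-1.26 ± 0.05 SE, adjusted p = 1.54e-06). SLC30A4, of vesicles, fell 2.66-fold, from 3.27, 3.24 and 3.01 to 1.03, 1.42 and 1.12 FPKM (-0.93 ± 0.081 SE, adjusted p = 5.65e-05).

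SLC30A1 is a known target of the zinc sensor MTF1, whose metal response element has the core TGCACNC or TGCGCNC. Searched on both strands, these cores were found in 42.9% of the windows of zinc carriers (9 of 15 genes), in 36.8% of all member windows and in 29.6% of all windows in the table. Among the zinc carriers with a window, 3 of 5 called higher and 5 of 9 called lower had a core. The SLC30A1 window holds 2, shown in capitals as read on the gene's strand, the first before and the second after the start.
SLC30A1 first core (chr1:211579184-211579230, minus strand): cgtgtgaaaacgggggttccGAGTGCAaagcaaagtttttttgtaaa
SLC30A1 second core (chr1:211579112-211579157, minus strand): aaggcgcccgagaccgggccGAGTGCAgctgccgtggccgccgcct

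Among carriers of other metals and of heme, 4 of 7 genes were higher, 1 lower and 2 neither (6 higher and 1 lower with median ratio scaling). As deposited the shares were 57.1% and 14.3%, against 28.8% and 49.8% of the background. SLC48A1 (HRG1, chr12:48147699-48176536 (plus strand)), which moves heme from endosomes and lysosomes into the cytosol, showed the largest rise of the 158 carriers on the log2(FPKM + 1) scale. Its level was 2.53, 1.91 and 3.31 FPKM in control and 47.1, 44.2 and 48.0 FPKM in shSETD2, 17.96-fold higher by group means (3.74 ± 0.14 SE, adjusted p = 1.12e-06). The iron importer SLC11A2 (DMT1) rose from 3.09, 3.96 and 4.17 to 6.57, 6.85 and 6.38 FPKM (0.69 ± 0.096 SE, adjusted p = 6.18e-04). The copper importer SLC31A1 was at 13.6, 14.6 and 12.5 FPKM in control and 12.2, 12.4 and 12.6 FPKM in shSETD2 and was not called as deposited (-0.11 ± 0.062 SE, adjusted p = 0.136), whereas its relative SLC31A2, of lysosomes and endosomes, rose from 0.912, 1.83 and 1.58 to 3.06, 2.78 and 3.77 FPKM (0.80 ± 0.17 SE, adjusted p = 0.00417). Without control library 3 SLC31A1 was called lower (-0.17, adjusted p = 0.0356), and with median ratio scaling it was called higher (0.20, adjusted p = 0.0251). Of the magnesium carriers, SLC41A2 rose from 2.23, 2.999 and 2.07 to 4.98, 5.75 and 5.44 FPKM (0.90 ± 0.11 SE, adjusted p = 3.35e-04) and the mitochondrial SLC41A3 fell from 4.13, 3.02 and 3.58 to 1.71, 1.86 and 1.67 FPKM (-0.73 ± 0.098 SE, adjusted p = 4.97e-04). SLC41A1 was at 11.3, 11.1 and 10.4 FPKM and 10.8, 9.79 and 10.8 FPKM, not called as deposited (adjusted p = 0.348). The iron exporter SLC40A1 did not reach the minimum, with 1.18, 1.24 and 1.42 FPKM in control and 0.113, 0.0642 and 0.0246 FPKM in shSETD2.

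The class of sugar carriers was assigned by family and without the excluded SLC2A1 and SLC2A3. It had 4 of 10 genes higher, 3 lower and 3 neither (6 higher and 2 lower with median ratio scaling). As deposited this was 40% and 30%, against 28.8% and 49.8% of the background. Among the lower genes, SLC5A6 carries biotin and pantothenate and not sugars (-0.26 ± 0.064 SE, adjusted p = 0.00845), and with median ratio scaling it changed sign (0.02, adjusted p = 0.818). SLC2A6 (GLUT6), a hexose carrier of lysosomes, went from 1.08, 1.37 and 1.13 to 9.75, 9.18 and 9.57 FPKM, 7.98-fold higher (2.26 ± 0.068 SE, adjusted p = 4.51e-07). SLC2A12 (GLUT12) went from 3.60, 4.25 and 3.70 to 0.268, 0.125 and 0.174 FPKM (-2.03 ± 0.079 SE, adjusted p = 1.41e-06). The importers of myo-inositol, a sugar alcohol that cells use as an osmolyte, moved apart. The sodium-coupled SLC5A3 rose from 12.2, 13.3 and 12.4 to 17.7, 20.5 and 17.9 FPKM (0.53 ± 0.069 SE, adjusted p = 4.45e-04), and the proton-coupled SLC2A13 fell from 3.13, 3.28 and 2.99 to 1.05, 1.35 and 1.10 FPKM (-0.94 ± 0.073 SE, adjusted p = 3.29e-05). SLC45A3 and SLC45A4 were both higher, at 0.43 ± 0.09 and 0.44 ± 0.062 SE (adjusted p = 0.00420 and 6.30e-04). Of the carriers of sugar phosphates SLC37A1 rose from 0.988, 1.05 and 0.917 to 1.57, 1.70 and 1.42 FPKM (0.37 ± 0.065 SE, adjusted p = 0.00201). The glucose-6-phosphate carrier SLC37A4, with 6.87, 4.14 and 4.31 FPKM in control and 2.38, 2.98 and 3.04 FPKM in shSETD2, was lower as deposited (-0.66 ± 0.18 SE, adjusted p = 0.0129) and lost its call with either scaling. SLC37A3 was called higher at 0.17 ± 0.055 SE (adjusted p = 0.0274), a call lost when any 1 of the control libraries or shSETD2 library 2 was left out.

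Carriers of monocarboxylates and other organic acids were counted without the excluded lactate carriers SLC16A1 and SLC16A3. They had 2 of 7 genes higher and 5 lower, with or without median ratio scaling. They thus had 28.6% and 71.4%, against 28.8% and 49.8% of the background as deposited. Their changes were large in both directions while their summed level stayed at 24.5 to 25.7 FPKM in control and 25.8 to 29.4 FPKM in shSETD2 libraries. SLC16A5 (MCT6) was under 0.7 FPKM in control, at 0.560, 0.681 and 0.684 FPKM, and at 18.7, 16.98 and 14.7 FPKM in shSETD2, 26.1-fold higher (3.43 ± 0.093 SE, adjusted p = 3.00e-07). SLC16A13 rose from 3.24, 3.78 and 3.90 to 5.36, 5.12 and 5.85 FPKM (0.47 ± 0.078 SE, adjusted p = 0.00137). Several others of the family fell. SLC16A10 (TAT1), a carrier of aromatic amino acids, was at 3.65, 4.29 and 3.91 FPKM in control and 0.00584, 0 and 0 FPKM in shSETD2 (adjusted p = 3.69e-07). SLC16A9, which releases carnitine, went from 3.16, 3.14 and 2.94 to 0.105, 0.0539 and 0.173 FPKM (-1.88 ± 0.064 SE, adjusted p = 7.94e-07), and SLC16A14, an orphan, from 3.60, 2.93 and 2.78 to 0.0770, 0.0947 and 0.140 FPKM (-1.89 ± 0.087 SE, adjusted p = 2.91e-06). SLC13A3, which takes up succinate and other dicarboxylates, was at 2.43, 2.21 and 2.02 FPKM in control and at most 0.00601 FPKM in shSETD2 (adjusted p = 1.34e-06).

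Organic ion carriers, which handle drugs, toxins and carnitine, had 1 of 6 genes higher and 4 lower. That is 16.7% and 66.7%, against 28.8% and 49.8% of the background. SLC22A4 (OCTN1), the ergothioneine carrier, went from 0.421, 0.237 and 0.488 to 4.35, 3.38 and 3.68 FPKM (1.80 ± 0.11 SE, adjusted p = 8.79e-06). Its close relative SLC22A5 (OCTN2), the carnitine importer, fell from 2.15, 2.05 and 2.12 to 0.659, 1.20 and 1.15 FPKM (-0.65 ± 0.12 SE, adjusted p = 0.00203), a call lost with quantile normalization (-0.24, adjusted p = 0.0913). The other 3 that fell were all near 0 in shSETD2. SLC22A23, an orphan, was at 4.38, 4.18 and 4.14 FPKM in control and 0.0222, 0.0355 and 0.0843 FPKM in shSETD2 (adjusted p = 1.82e-07). SLC47A1 (MATE1), which exports organic cations, was at 4.12, 2.76 and 4.47 FPKM and then 0, 0.0101 and 0.0124 FPKM (adjusted p = 1.29e-05). SLC22A17, a receptor for lipocalin 2, was at 2.22, 2.47 and 2.38 FPKM and then 0.0153, 0.0136 and 0 FPKM (adjusted p = 6.26e-07).

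Carriers of lipids, choline, acetyl-CoA and bile acids had 1 of 9 genes higher and 6 lower, with or without median ratio scaling. The class thus had 11.1% and 66.7%, against 28.8% and 49.8% of the background as deposited. All 3 members of the choline family SLC44 were lower. SLC44A1 fell from 7.67, 7.93 and 6.57 to 4.75, 4.43 and 3.62 FPKM (-0.67 ± 0.10 SE, adjusted p = 0.00103), SLC44A2 from 11.5, 10.8 and 11.99 to 6.14, 3.38 and 5.59 FPKM (-1.07 ± 0.18 SE, adjusted p = 0.00161) and SLC44A5 from 4.33, 3.93 and 4.17 to 0.952, 1.10 and 0.839 FPKM (-1.39 ± 0.07 SE, adjusted p = 4.33e-06). The fatty acid carriers of family SLC27 also activate fatty acids with coenzyme A. Of these, SLC27A4 rose from 15.2, 15.1 and 14.0 to 20.8, 18.9 and 21.6 FPKM (0.44 ± 0.063 SE, adjusted p = 6.45e-04), while SLC27A2 was at 4.24, 3.75 and 3.68 FPKM in control and 0, 0.0208 and 0.0403 FPKM in shSETD2 (adjusted p = 3.98e-07). SLC27A1, at 1.39, 1.33 and 1.11 and 1.24, 1.36 and 0.864 FPKM, was not called as deposited (adjusted p = 0.480). SLC33A1, which brings acetyl-CoA into the endoplasmic reticulum, fell from 6.70, 4.51 and 6.57 to 3.13, 3.67 and 3.32 FPKM (-0.65 ± 0.14 SE, adjusted p = 0.00485), and SLC10A7, a relative of the bile acid carriers, from 3.16, 3.37 and 3.09 to 1.22, 1.27 and 1.15 FPKM (-0.93 ± 0.057 SE, adjusted p = 1.07e-05).

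Vitamin carriers had 1 of 6 genes higher and 4 lower, and 2 of each with median ratio scaling. As deposited these were 16.7% and 66.7%, against 28.8% and 49.8% of the background. SLC52A2, the riboflavin carrier, was at 3.38, 3.11 and 3.32 FPKM in control and 7.93, 8.23 and 17.5 FPKM in shSETD2, where library 3 was about 2 times the others (ratio of the highest to the lowest 2.20). Its difference was 1.43 ± 0.28 SE (adjusted p = 0.00306), and the call held without any 1 library. The thiamine carrier SLC19A2 fell from 8.38, 8.23 and 7.83 to 4.07, 4.30 and 3.71 FPKM (-0.86 ± 0.062 SE, adjusted p = 2.30e-05). Of the folate carriers, SLC19A1 was at 4.52, 4.64 and 4.17 FPKM and 3.72, 3.56 and 3.51 FPKM and was lower as deposited (-0.24 ± 0.056 SE, adjusted p = 0.00696) but at 0.03 with median ratio scaling (adjusted p = 0.695), and SLC46A1 was lower as deposited (-0.43 ± 0.072 SE, adjusted p = 0.00152) and not called with median ratio scaling (-0.19, adjusted p = 0.0513). SLC46A3, a lysosomal carrier of the same family, was at 2.64, 3.06 and 2.47 FPKM in control and listed at 0 in shSETD2 (adjusted p = 1.36e-06). The vitamin C carrier SLC23A2 was at 11.6, 12.4 and 11.4 FPKM in control and 12.1, 11.3 and 11.5 FPKM in shSETD2 and was not called as deposited (adjusted p = 0.758).

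Nucleoside and nucleotide sugar carriers had 2 of 9 genes higher and 4 lower (3 and 2 with median ratio scaling). The shares as deposited were 22.2% and 44.4%, against 28.8% and 49.8% of the background. The equilibrative nucleoside carriers of the plasma membrane went in opposite directions: SLC29A1 (ENT1) rose from 12.8, 13.9 and 14.5 to 24.3, 21.9 and 23.7 FPKM (0.72 ± 0.062 SE, adjusted p = 5.31e-05), and SLC29A2 (ENT2) fell from 12.9, 8.80 and 13.9 to 5.09, 6.76 and 4.88 FPKM (-0.96 ± 0.19 SE, adjusted p = 0.00298). The lysosomal SLC29A3 fell from 2.19, 1.73 and 2.001 to 0.670, 0.792 and 0.669 FPKM (-0.80 ± 0.077 SE, adjusted p = 9.83e-05). In the Golgi, SLC35A2, which supplies UDP-galactose, rose from 3.19, 2.59 and 2.51 to 5.91, 4.21 and 6.46 FPKM (0.78 ± 0.15 SE, adjusted p = 0.00275). SLC35A1, which supplies CMP-sialic acid, was lower as deposited, at 9.34, 8.64 and 8.79 FPKM against 6.98, 7.13 and 6.75 FPKM (-0.32 ± 0.05 SE, adjusted p = 0.00106), and at -0.02 with median ratio scaling (adjusted p = 0.708). SLC35A5, with 5.52, 2.15 and 3.97 FPKM in control and 1.45, 1.35 and 2.97 FPKM in shSETD2, varied over 2-fold inside both groups and was not called (adjusted p = 0.0753). It was called lower without control library 2 (-1.005, adjusted p = 0.0197) or without shSETD2 library 3 (-0.96, adjusted p = 0.0330). The importers of phosphate parted as well: SLC20A1 rose from 20.6, 22.9 and 22.6 to 29.6, 28.7 and 28.6 FPKM (0.38 ± 0.05 SE, adjusted p = 4.60e-04) and SLC20A2 fell from 4.43, 4.34 and 4.97 to 3.03, 3.04 and 2.78 FPKM (-0.50 ± 0.066 SE, adjusted p = 4.74e-04). SLC17A5, the sialic acid exporter of lysosomes and the only member of its class, fell from 6.59, 7.09 and 7.73 to 4.70, 4.94 and 4.95 FPKM (-0.47 ± 0.065 SE, adjusted p = 5.84e-04).

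**Figure D5:**
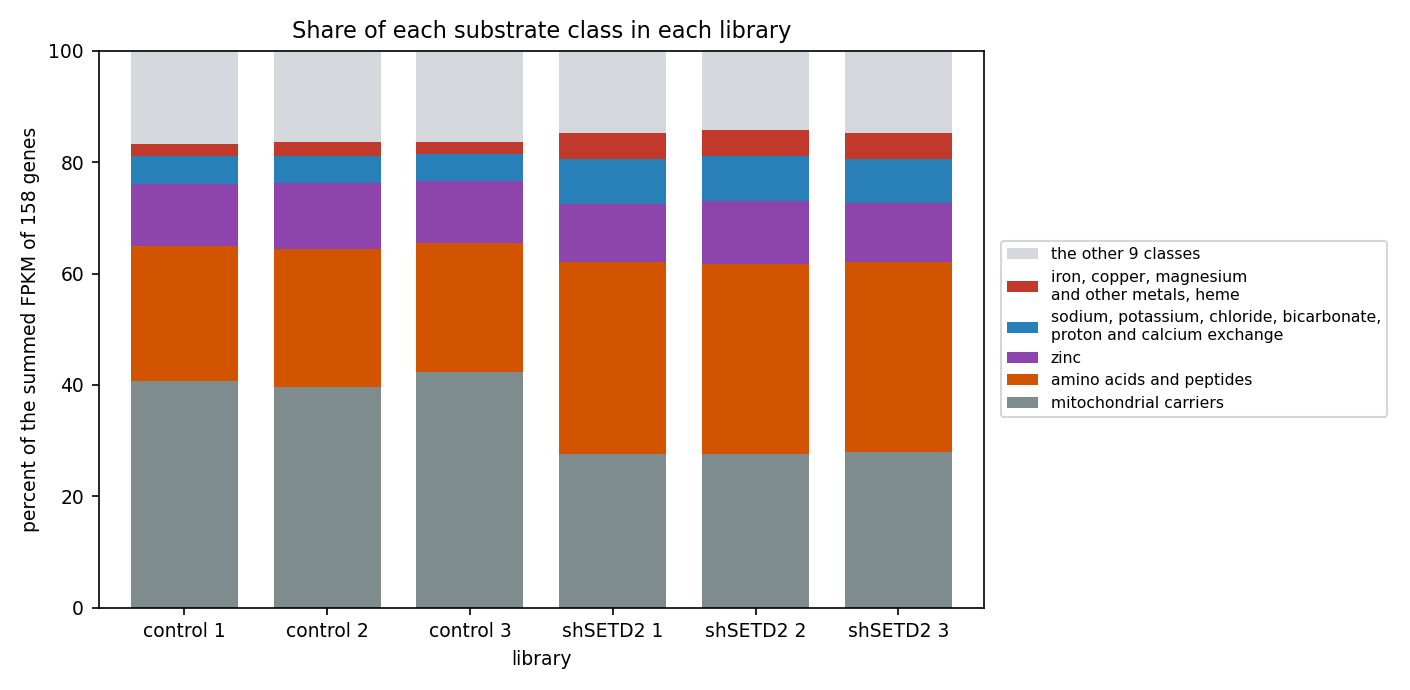
Share of the summed FPKM of the 158 carriers taken by each of the 5 classes named and by the other 9 classes together, in percent, in each of the 6 libraries. Mitochondrial carriers take 39.6 to 42.3% in control and 27.6 to 27.97% in shSETD2 libraries, and amino acid carriers 23.2 to 24.8% and 34.0 to 34.4%. SLC7A5 and SLC38A2 together rose by more FPKM than the sum of the amino acid class did.

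The summed level of all 158 carriers was 1680.4, 1669 and 1733 FPKM in control and 1856, 1844 and 1875 FPKM in shSETD2 libraries, between 0.755 and 0.845% of the FPKM of all listed genes. The 10 highest carriers of a library took 43.5 to 46.6% of this sum in control and 48.5 to 49.1% in shSETD2. Within a group most carriers varied little: among those with a group mean of at least 1 FPKM, the median ratio of the highest to the lowest library was 1.15 in control (155 carriers) and 1.14 in shSETD2 (137 carriers), and the ratio was over 2 for 7 and 4 of them. These were, in control, SLC6A6, SLC7A2, SLC10A3, SLC25A43, SLC31A2, SLC35A5 and SLC39A1, and, in shSETD2, SLC6A6, SLC35A5, SLC36A1 and SLC52A2. SLC39A1 (ZIP1), a zinc importer of the cell surface, had 9.11, 19.2 and 9.45 FPKM in control and 12.3, 15.9 and 10.8 FPKM in shSETD2 and was not called (adjusted p = 0.758), and SLC10A3, at 2.02, 4.14 and 4.52 and 3.25, 4.96 and 3.06 FPKM, was not called either (adjusted p = 0.774). Leaving out 1 library at a time changed the call of 13 of the 158 carriers: 5 lost a call, 8 gained one, and 119 of the 124 called carriers kept theirs in all 6 fits.

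Genes that power, escort or regulate solute carriers were counted as whole lists, and the genes named from them were chosen after their values were seen. Over all 14068 tested genes 26.8% were higher and 51.8% lower. Of 7 tested genes of the sodium pump, whose gradient drives the sodium-coupled carriers, 2 were higher and 4 lower. The subunit ATP1B1 rose from 13.2, 13.3 and 13.01 to 24.4, 24.7 and 23.8 FPKM (0.84 ± 0.037 SE, adjusted p = 2.50e-06). Of 21 tested subunits of the proton pump of lysosomes 7 were higher and 6 lower (12 and 5 with median ratio scaling). Of 17 tested accessory and regulatory proteins 8 were higher and 4 lower (13 and 3 with median ratio scaling). Among these, NEDD4L, a ubiquitin ligase that takes carriers off the surface, rose from 2.71, 2.47 and 2.40 to 22.6, 23.1 and 21.5 FPKM (2.73 ± 0.056 SE, adjusted p = 9.52e-08), and SGK1, the kinase that restrains it, from 1.07, 0.904 and 0.976 to 7.82, 8.37 and 8.15 FPKM (2.20 ± 0.058 SE, adjusted p = 2.67e-07). TXNIP, which promotes the removal of glucose carriers from the surface, fell from 13.9, 16.01 and 15.7 to 0.532, 0.596 and 0.507 FPKM (-3.39 ± 0.069 SE, adjusted p = 9.39e-08). WNK2 and WNK3, kinases upstream of the SLC12 cotransporters, fell from 4.59, 4.08 and 4.70 to 0.896, 0.819 and 0.795 FPKM and from 2.86, 3.03 and 2.93 to 0.290, 0.271 and 0.290 FPKM (-1.57 and -1.62, adjusted p = 2.00e-06 and 5.79e-07), while WNK1 rose from 15.4, 16.01 and 17.2 to 20.5, 19.5 and 23.7 FPKM (0.37 ± 0.081 SE, adjusted p = 0.00566).

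Related transporters outside the named pattern differed as well. Of 5 tested organic anion transporters of the SLCO family 3 were higher and 2 lower. SLCO4A1 was at 2.001, 2.22 and 2.60 FPKM in control and 232, 208 and 227 FPKM in shSETD2, above each of the 158 carriers in the latter (6.09 ± 0.079 SE, adjusted p = 2.43e-08). Of 22 tested ABC transporters, which use ATP directly, 4 were higher and 14 lower (7 and 11 with median ratio scaling), against the 26.8% and 51.8% of all tested genes given above. ABCC3, an exporter of conjugates, was at 0.0169, 0.0190 and 0 FPKM in control and 6.12, 5.36 and 5.34 FPKM in shSETD2 (adjusted p = 1.94e-07), and the mitochondrial ABCB10 fell from 16.4, 16.2 and 16.3 to 6.63, 6.73 and 6.198 FPKM (-1.20 ± 0.046 SE, adjusted p = 1.27e-06).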

How the data were processed

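Per the submitters' notes and the study's methods, the authors aligned reads to hg19 using HISAT2, estimated expression in Ballgown and deposited an FPKM value per gene for each of 6 libraries. The sources used here give neither tool versions nor the filter on genes. A second deposited table holds the authors' own comparison (fold changes, p-values and q-values) and was not used. Groups came from the labels. Library sizes cannot be read from FPKM, so precision rests on the spread over 3 libraries per group.

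Genes with a mean of at least 0.5 FPKM over the 6 libraries (14068 genes) were fitted on log2(FPKM + 1), a pseudocount of 1, with group as the only term, using lmFit and eBayes with an intensity trend (limma 3.58.1, R 4.3.3). The test was two-sided, with Benjamini-Hochberg adjustment over all tested genes and a threshold of 0.05. The fit was tested on simulated data first. Summaries used pandas 2.3.3 and numpy 2.4.6 under Python 3.11.15, and plots matplotlib 3.10.9. Gene positions are those of the deposited table (hg19), and promoter sequences are RefSeq's (GRCh38.p14).

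The members, the lists and the rule for named genes were chosen with earlier results of these data known. The rule names the 12 largest rises and falls among called carriers whose groups do not overlap, the 8 highest carriers, the largest rise, largest fall and highest level among called carriers of each substrate class, and a set of textbook carriers. Some genes that counts and medians include are not reported here by name. Further carriers were named as examples within a family after their values were seen. The alternatives were pseudocounts of 0.1 and 0.01, no filter or a mean of at least 5 FPKM, scaling by quantiles or by median ratio, a fit with no intensity trend, the replicate number as a block, and each library left out in turn.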

Additional observations from a re-analysis of the deposited data

How the results depend on the processing

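Depth is unknown for FPKM, so low values carry an unknown counting error. Of 158 carriers, the counts of 49 higher and 75 lower stayed within 1.5 times under every alternative but one: with a minimum mean of 5 FPKM only 77 carriers were tested, 32 being higher and 27 lower. Scaling moved the balance between the directions most, to 60 higher and 63 lower with quantile normalization and 69 and 61 with median ratio scaling. Leaving out 1 library gave 47 to 50 higher and 74 to 75 lower. The replicate block gave 49 higher and 78 lower. The deviations of libraries with the same number correlated at -0.0237, 0.0177 and -0.00766. No effect shared by number was seen, and the main fit did not pair the libraries. Whether they were prepared in matched pairs is not given in the labels, and these correlations cannot show it. Among related genes, median ratio scaling raised the higher calls from 7 to 12 for the proton pump, from 8 to 13 for accessory and regulatory proteins and from 4 to 7 for ABC transporters.

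Of 116 carriers named, 92 kept direction and side of the threshold under every alternative that tested them. Of the other 24, 12 changed sign under some alternative and 11 lost the threshold in the same direction under some, SLC5A6, SLC19A1 and SLC39A7 doing both, and the remaining 4 (SLC6A6, SLC25A39, SLC35A5 and SLC36A1) passed it under some alternative. With median ratio scaling the sign turned for SLC1A5 (0.0491), SLC5A6 (0.0182), SLC19A1 (0.0255), SLC23A2 (0.290), SLC25A3 (0.304), SLC27A1 (0.0963), SLC31A1 (0.197) and SLC41A1 (0.244). With quantile normalization it turned for SLC23A2 (0.0123), SLC27A1 (0.358) and SLC39A7 (-0.107). Leaving out 1 library turned differences that were not called, with ranges of -0.185 (control 1) to 0.249 (control 3) for SLC10A3, -0.0228 (shSETD2 2) to 0.0572 (shSETD2 1) for SLC12A2, -0.0434 (shSETD2 1) to 0.0157 (control 2) for SLC23A2, -0.0467 (control 2) to 0.0131 (control 1) for SLC25A3, -0.154 (shSETD2 2) to 0.0148 (shSETD2 3) for SLC27A1 and -0.0712 (control 1) to 0.429 (control 2) for SLC39A1. The cause was not tested.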

Other observations

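Of 40 carriers below the minimum of 1 FPKM, which were not among the 158, 19 were tested in the limma fit. Of these 3 were higher in shSETD2, 14 lower and 2 neither, against 26.8% higher and 51.8% lower over all tested genes. Several of those lower, such as SLC2A10, SLC30A3, SLC27A6, SLC22A31 and SLC6A11, were at or near 0 FPKM in every shSETD2 library. They entered the fit through their control values, so their direction followed from the selection and the counts are a description. The 4 carriers whose values are given below were chosen after these were seen. SLC16A7, a pyruvate and lactate carrier, was at 0.221, 0.137 and 0.155 FPKM in control and 1.48, 1.59 and 1.15 FPKM in shSETD2 (adjusted p = 4.57e-05). SLC2A4, the insulin-regulated glucose carrier, was at 1.45, 0.935 and 1.19 FPKM in control and 0.0925, 0.228 and 0.225 FPKM in shSETD2 (adjusted p = 2.41e-04). SLC2A10 was at 1.96, 1.92 and 2.01 FPKM in control and listed at 0 in shSETD2 (adjusted p = 6.18e-07). SLC17A7, which loads glutamate into vesicles, was at 0.659, 0.645 and 0.737 FPKM in control and 1.42, 1.12 and 1.35 FPKM in shSETD2 (adjusted p = 0.00108), and so was present in both groups.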
